A study of Mus musculus with 13 samples.

Results

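Imprinted genes are expressed mainly from the copy inherited from 1 parent. The 44 imprinted genes described here were chosen by name from the known mouse imprinted clusters. The expression table held 25965 genes and a row for 41 of the 44, whereas Kcnq1ot1, Rian and Mirg were not analysed here. Of the 41, 33 were among the 13134 genes that were tested, which needed a level of 1 read per 1000000 reads (RPM) or more in 3 or more of the 12 hairpin libraries. The other 8, which were Phlda2, Slc22a18, Ascl2, Slc22a3, Usp29, Magel2, Mkrn3 and Rasgrf1, are given by their reads.

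The RNA came from primary female mouse embryonic fibroblasts (MEFs), which are cells grown out of mid-gestation embryos of the same age for every library. The embryos came from dams of a mixed 129/C57 background that were Setdb1 +/gt and carried Xist∆A, mated to PGK sires. In the 12 hairpin libraries the X chromosomes were therefore Xist∆A and PGK, and the cells were transduced with a hairpin retrovirus and selected with puromycin. The 4 groups of 3 libraries were control hairpin, control hairpin + 5-aza, Setdb1 hairpin and Setdb1 hairpin + 5-aza, where 5-azacytidine (5-aza) was given for 24 h from day 3 after transduction and every culture was harvested on day 7. In each control group, replicates A and B carried a non-silencing hairpin and replicate 1 a luciferase hairpin, while in each Setdb1 group replicates A and B carried shSetdb1.4 and replicate 1 carried shSetdb1.6. By the study's account the Setdb1 hairpins went into cells with 1 gene trap allele of Setdb1 (+/gt) and the non-silencing hairpin into Setdb1 wild type cells, and it does not state the genotype of the luciferase cells. The labels give no genotype for a library, so hairpin and genotype cannot be told apart. The labels do not say that replicates were separate cultures, so p-values measure only the spread between these samples, which may be technical. 1 further library, named PGK, had 5-aza but no named hairpin and entered no comparison. The study describes a PGK sample in which its PGK variants were found, so this library may differ from the others in strain as well as in the hairpin.

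Many imprinted clusters, but not every gene listed here, are controlled by a differentially methylated imprinting control region. It carries DNA methylation on the copy from 1 parent that was set in the egg or sperm. The methylated copy also carries H3K9me3, which the methyltransferase Setdb1 deposits where the KRAB zinc finger protein Zfp57 brings the corepressor Trim28 to it, and Dnmt1 with Uhrf1 copies the DNA methylation at each cell division. 5-aza is a cytidine analogue that traps DNA methyltransferases and lowers DNA methylation in dividing cells. Loss of methylation at a control region can raise or lower a gene according to whether the control region holds a silencing RNA promoter, an insulator or the gene's own promoter. The table gives total expression of both copies, so no change described here says which parental copy moved, and in bulk RNA fewer expressing cells and less RNA per cell cannot be told apart.

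Across the 12 hairpin libraries, reads in listed genes numbered 36.4 to 51.3 M, of library totals of 41.9 to 58.8 M. By those totals a gene at 1 RPM held 41 to 58 reads, and 3 reads came to 0.051 to 0.0716 RPM. Setdb1 itself stood at 46.1 to 46.4 RPM in the control hairpin libraries and 12.1 to 15.4 RPM in the Setdb1 hairpin libraries, with 42.7 to 43.9 against 10.5 to 14.5 RPM under 5-aza, and was 30.2% and 29.5% of control (limma, adjusted p = 1.52e-06 and 1.24e-06). All 9 fibroblast markers examined were tested, with a summed level of 23229.5 to 35208.4 RPM over the 4 groups. The 4 epithelial markers summed to 2.64 to 3.16 RPM in the control hairpin libraries, 8.57 to 10.6 RPM with 5-aza, 9.62 to 10.5 RPM with the Setdb1 hairpin and 20.7 to 23.5 RPM with both, and 2 of them stayed under 1 RPM in every library. Of 4 skeletal muscle markers, 2 were under 1 RPM throughout, and their sum ranged over 190.6 to 204.3, 219.1 to 250.1, 206.6 to 236.0 and 235.5 to 256.2 RPM in the same order of groups. The macrophage markers, 6 of 7 with a row and 3 of them under 1 RPM in every library, summed to 10.03 to 10.95 RPM, 11.86 to 14.22 RPM, 9.91 to 10.49 RPM and 12.68 to 13.3 RPM, higher with 5-aza without overlap in both hairpin groups. The 3 cartilage markers summed to 76.7 to 81.2, 73.3 to 92.2, 92.5 to 128.3 and 99.3 to 129.8 RPM, and the neural markers to 45.0 to 47.4, 39.7 to 51.8, 59.2 to 68.8 and 46.8 to 62.8 RPM. The 4 endothelial markers summed to 2.34 to 5.67 RPM over the 12 libraries, with the 4 groups overlapping. The part of these other markers in the results was not tested. Levels are RPM without a length correction, so they are compared between libraries and never between genes.

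To ask whether the Setdb1 hairpin and 5-aza moved imprinted genes, 4 pairwise comparisons and their interaction were drawn from 1 limma fit, with an adjusted p under 0.05 as the call. Setdb1 hairpin cells differed from control hairpin cells in 3 of 33 imprinted genes, Gatm and Asb4 higher and Grb10 lower. Over all genes tested 12.4% were called, 9.01% higher and 3.4% lower. Under 5-aza, the Setdb1 hairpin cells differed from control in 9 of 33, of which Cdkn1c, Plagl1, Peg10, Peg12 and Gatm were higher and H19, Igf2, Mest and Grb10 lower, where the share over all genes was 19.9%, with 14.5% higher and 5.37% lower. 5-aza changed 10 of 33 in control hairpin cells, with Asb4, Blcap, H13 and Gatm higher and Igf2, Mest, Grb10, Nnat, Zdbf2 and Gab1 lower, against 18.8% of all genes, 1769 of the 13134 being higher and 5.34% lower. In Setdb1 hairpin cells 5-aza changed 13 of 33, with Peg10, Ppp1r9a, Ndn, Blcap, Impact, Gnas, H13 and Gatm higher and H19, Igf2, Mest, Grb10 and Gab1 lower, against 28.9% of all genes, 21.4% higher and 7.51% lower. With the culture (the same named replicate without and with 5-aza) as a block, 16 of 33 were called there, 10 higher and 6 lower, with Cdkn1c, Dlk1 and Nnat added. The 28.9% is from the fit without a block. No share over all genes was taken with it, so the 16 cannot be set against all genes. 7 genes, Blcap, Gab1, Gatm, Grb10, H13, Igf2 and Mest, were called for 5-aza in both, out of 10 and 13. No share over all genes was taken for calls in both. Each Setdb1 comparison shares libraries with each 5-aza comparison, so these counts are not independent of each other. The balance of directions depended on the scaling of the libraries. For 5-aza in Setdb1 cells the 8 higher and 5 lower became 5 and 5 with median centring and 4 and 6 with quantile normalization. There Peg10 (adjusted p = 0.0618 and 0.051), Ndn (0.0737 and 0.0511) and Gnas (0.105 and 0.46) lost the call with both and Ppp1r9a with quantile normalization (0.0607). Asb4 lost its call with both, between hairpins (0.0676 and 0.0949) and for 5-aza in control cells (0.0599 and 0.182). Between hairpins under 5-aza, Peg12 lost its call with both (0.0536 and 0.0589) and Igf2 with quantile normalization (0.0643).

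**Figure D1:**
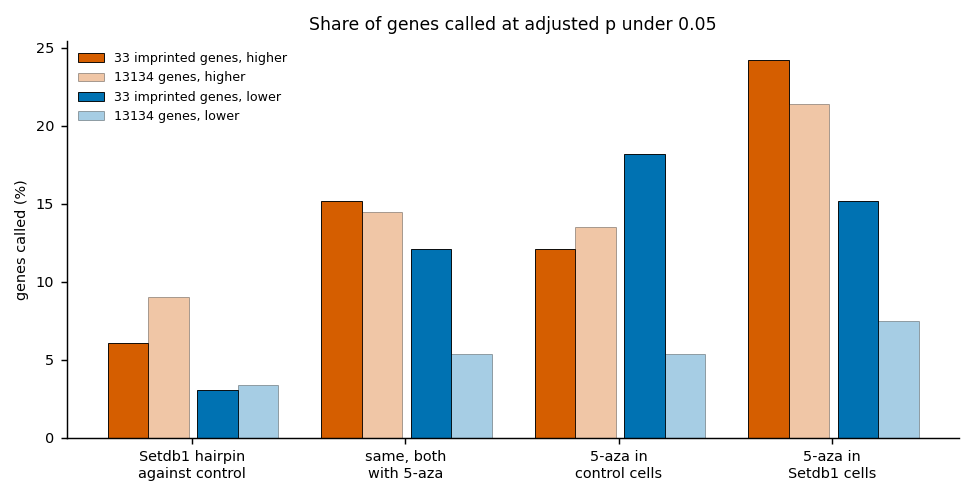
Share of genes called at adjusted p under 0.05 (%, vertical axis) in each of the 4 pairwise comparisons (horizontal axis), for the 33 imprinted genes (dark bars) and all 13134 genes tested (pale bars), split into higher (orange) and lower (blue). Of the imprinted genes 1, 4, 6 and 5 were lower and 2, 5, 4 and 8 higher, from left to right.

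The imprinted genes moved in both directions and by small amounts. Their median log2 fold change was -0.04, 0.01, 0.07 and 0.02 in the 4 comparisons in the order above, against 0.03, 0.05, 0.04 and 0.06 over all genes. The median size of the change regardless of sign was 0.16, 0.18, 0.20 and 0.19, against 0.09, 0.11, 0.11 and 0.13 over all genes. The 2 groups compared did not overlap in 8, 13, 17 and 15 of the 33, where 34.4%, 34.7%, 37.6% and 43.4% of all genes did not. The interaction, which asks whether 5-aza acted differently with the Setdb1 hairpin, called 0 of 33 by limma, with 4 at an unadjusted p under 0.05 (H19, Igf2, Blcap and Zdbf2), where 0.388% of all genes were called. Counting the 4 pairwise comparisons, 14 of the 33 genes were called in 0, 9 in 1, 6 in 2, and 2 in each of 3 (Igf2 and Mest) and 4 (Grb10 and Gatm). The counts rest in part on single libraries. Of the 9 genes called between hairpins under 5-aza, 2 were called without control + 5-aza replicate A, 4 without its replicate B, 3 without Setdb1 + 5-aza replicate 1 and 2 without its replicate B. Of the 10 called for 5-aza in control cells, 6 were called without control replicate A, 5 without control replicate B and 5 without control + 5-aza replicate B, and of the 13 in Setdb1 cells 6 were called without Setdb1 replicate A, 7 without Setdb1 + 5-aza replicate 1 and 7 without its replicate B.

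**Figure D2:**
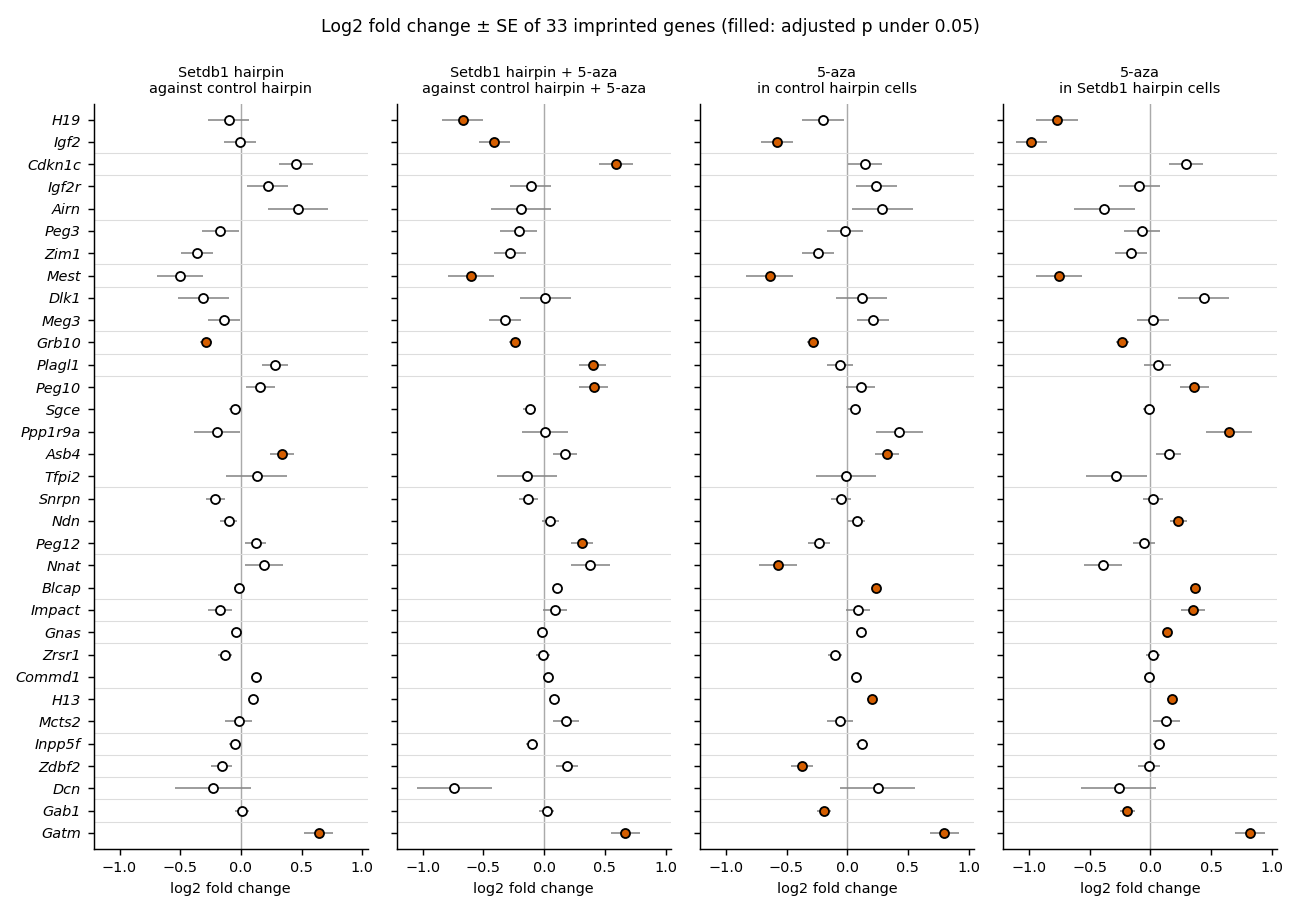
Log2 fold change (horizontal axis) with its standard error (bars) of each of the 33 imprinted genes tested (rows, grouped by cluster) in the 4 pairwise comparisons. Filled orange points passed adjusted p under 0.05. Gatm lies to the right and Grb10 to the left in all 4 panels, and the lowest value is -0.98, for Igf2 with 5-aza in Setdb1 hairpin cells.

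**Figure D3:**
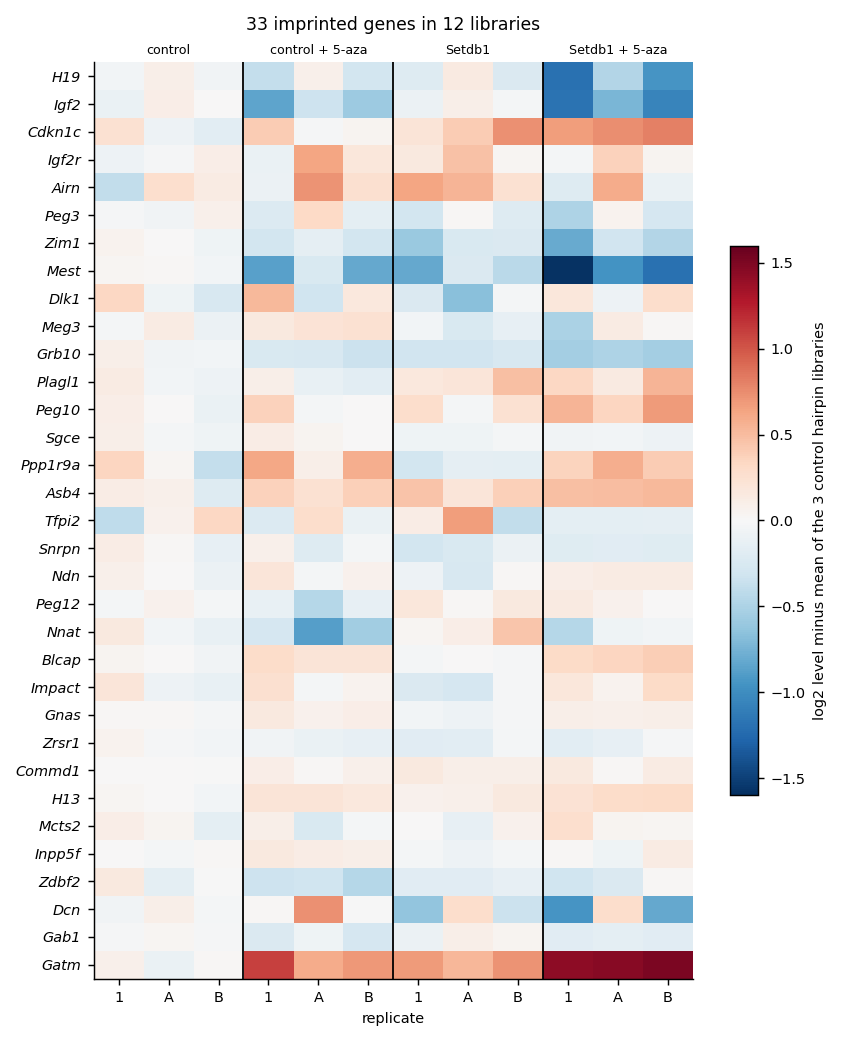
Log2 level of each of the 33 imprinted genes (rows) in each of the 12 libraries (columns, by group and replicate) minus the mean of the 3 control hairpin libraries, in log2 units (blue lower, red higher). The values run from -1.58 for Mest in Setdb1 + 5-aza replicate 1 to 1.5 for Gatm in Setdb1 + 5-aza replicate B. Replicate A of control + 5-aza lies apart from replicates 1 and B in Dcn (15.4 against 9.37 and 9.21 RPM), Mest (27.5 against 17.9 and 18.5 RPM) and Peg3 (143.5 against 99.1 and 103.9 RPM).

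In the Igf2-H19 cluster, Igf2 fell with 5-aza in both hairpin groups, and H19 fell with it in Setdb1 hairpin cells. Igf2 (chr7:142650766-142666816, mm10, minus strand) encodes the fetal insulin-like growth factor 2 and is expressed from the paternal copy, while H19 (chr7:142575529-142578143, minus strand) is a maternally expressed long non-coding RNA that shares its enhancers. In replicates 1, A and B, Igf2 stood at 841.4, 973.6 and 912.8 RPM with the control hairpin and at 848.5, 968.8 and 889.5 RPM with the Setdb1 hairpin. With 5-aza it stood at 507.3, 720.7 and 607.0 RPM with the control hairpin and at 400.1, 544.5 and 437.0 RPM with the Setdb1 hairpin. All 6 libraries with 5-aza lay below all 6 without it, and the hairpin groups overlapped both with and without 5-aza. Igf2 fell by 0.58 ± 0.13 on the log2 scale with 5-aza in control cells (SE, n = 3 per group, limma adjusted p = 0.00906) and by 0.98 ± 0.13 in Setdb1 cells (adjusted p = 0.000509), and both calls held whichever of the 12 libraries was left out. The log2 fold change of Igf2 between hairpins was -0.01 without 5-aza (adjusted p = 0.971), and under 5-aza Igf2 was 0.41 ± 0.13 lower in Setdb1 cells (adjusted p = 0.0431). That last call was lost in 8 of the 12 fits that left out a library, with adjusted p up to 0.181: without control replicate A or B, control + 5-aza replicate A or B, Setdb1 replicate 1 or B, or Setdb1 + 5-aza replicate 1 or B.

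H19 stood at 594.5, 651.1 and 590.0 RPM with the control hairpin and at 530.0, 674.5 and 518.8 RPM with the Setdb1 hairpin. With 5-aza it stood at 470.0, 647.9 and 499.5 RPM with the control hairpin and at 267.8, 440.7 and 317.9 RPM with the Setdb1 hairpin. The 3 libraries with both the Setdb1 hairpin and 5-aza were the lowest of the 12, and in each group replicate A was the highest. H19 fell by 0.77 ± 0.17 on the log2 scale with 5-aza in Setdb1 cells (adjusted p = 0.00677, held in all 12 fits that left out a library), while its log2 fold change in control cells was -0.20 (adjusted p = 0.441). Between hairpins under 5-aza, H19 was 0.67 ± 0.17 lower with the Setdb1 hairpin (adjusted p = 0.0164), which did not pass without control + 5-aza replicate A or Setdb1 + 5-aza replicate 1 or B (adjusted p up to 0.0757). The difference between the 2 effects of 5-aza on H19 was -0.57 ± 0.24 (unadjusted p = 0.0332, adjusted p = 0.794), so it did not pass the test over all genes, and the same held for Igf2 at -0.40 ± 0.18 (adjusted p = 0.794). With the culture as a block, the limma adjusted p was 0.0264 for H19 and 0.0541 for Igf2. That block also pairs the control libraries, whose cultures were not taken as paired.

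Igf2as, the antisense gene over Igf2, was likewise lower with 5-aza, with a mean of 3.65, 2.12, 4.49 and 1.94 RPM with the control hairpin, control + 5-aza, Setdb1 hairpin and Setdb1 hairpin + 5-aza. It fell by 0.81 with 5-aza in control cells (adjusted p = 0.00799) and by 1.21 in Setdb1 cells (adjusted p = 0.000751). Whether the counting used strand is not given in the sources used here, so reads of Igf2as and Igf2 where they overlap may not have been told apart.

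**Figure D4:**
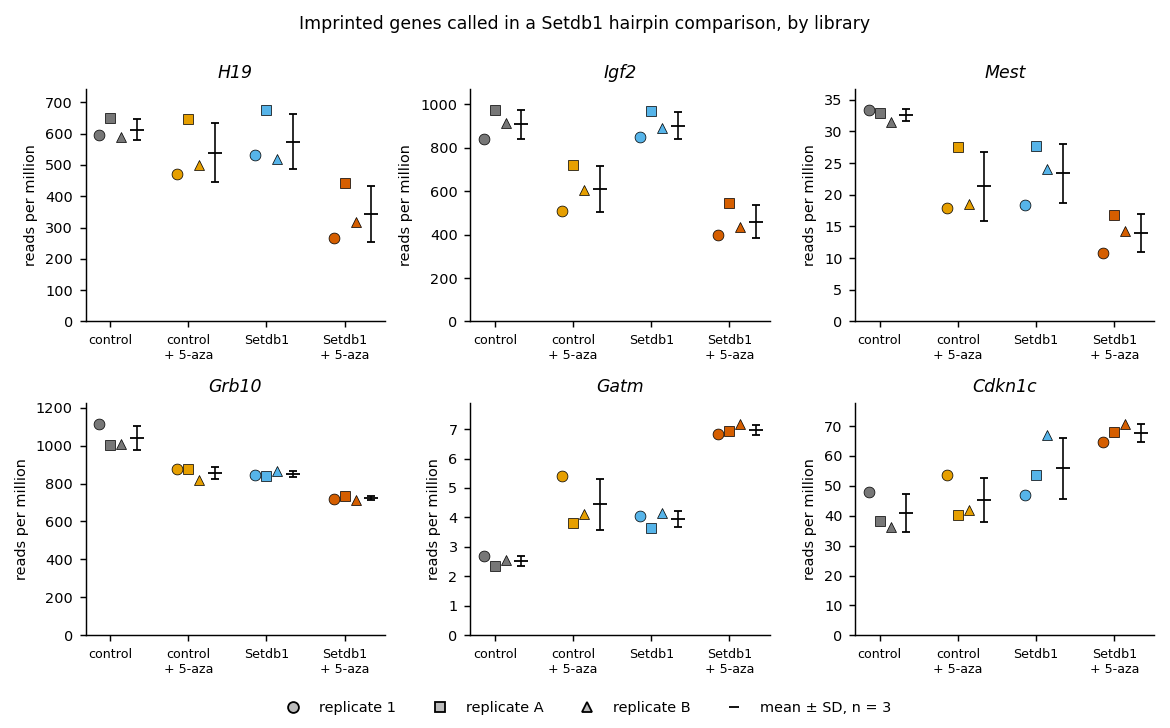
Level in RPM (vertical axes, from 0) of H19, Igf2, Mest, Grb10, Gatm and Cdkn1c in the 4 groups (horizontal axes), with a point per library shaped by replicate and the mean ± SD of the 3 libraries beside them. Igf2 with 5-aza lies below Igf2 without it in every library, Grb10 steps down and Gatm steps up with each treatment, and Cdkn1c with both treatments is at 64.6 to 70.7 RPM.

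Mest (chr6:30723547-30748455, plus strand), a paternally expressed gene for a hydrolase-like protein of the mesoderm, fell with 5-aza in both hairpin groups. It stood at 33.3, 32.9 and 31.5 RPM in control replicates 1, A and B, at 17.9, 27.5 and 18.5 RPM with 5-aza, at 18.5, 27.6 and 24.1 RPM with the Setdb1 hairpin, and at 10.9, 16.8 and 14.2 RPM with both. Every treated library lay below the 3 control libraries, and those with both treatments were the lowest. Mest fell by 0.64 ± 0.19 with 5-aza in control cells (adjusted p = 0.0358) and by 0.75 ± 0.19 in Setdb1 cells (adjusted p = 0.0137). Between hairpins Mest was 0.60 ± 0.19 lower under 5-aza (adjusted p = 0.044), and its log2 fold change without 5-aza was -0.50, which did not pass (adjusted p = 0.111). These calls for Mest depended on single libraries. The call in control cells was lost without any 1 of the 3 control replicates, control + 5-aza replicate 1 or B, or Setdb1 + 5-aza replicate B (adjusted p up to 0.121), that in Setdb1 cells without Setdb1 replicate A or Setdb1 + 5-aza replicate 1 (up to 0.0588), and that between hairpins without any 1 of the 3 control replicates, control + 5-aza replicate A or B, Setdb1 replicate B, or Setdb1 + 5-aza replicate 1 or B (up to 0.187). Mest overlaps Copg2 on the other strand, which stood at 31.3 to 41.7 RPM, and the reads of the overlap may not have been assigned by strand.

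Grb10 (chr11:11930508-12038683, minus strand), an adaptor protein that restrains insulin and growth factor signalling and is maternally expressed outside the brain, fell with both treatments by a small and even step. Its 3 libraries stood at 1113.6, 1004.7 and 1006.1 RPM with the control hairpin, at 875.2, 874.3 and 820.2 RPM with 5-aza, at 842.4, 838.6 and 867.3 RPM with the Setdb1 hairpin, and at 715.9, 736.3 and 715.7 RPM with both. No 2 groups of any pairwise comparison overlapped. The log2 fold change of Grb10 was -0.29, -0.24, -0.28 and -0.23, each with an SE of 0.05, for the Setdb1 hairpin, the Setdb1 hairpin under 5-aza, 5-aza in control cells and 5-aza in Setdb1 cells (limma adjusted p = 0.00199, 0.00425, 0.00198 and 0.00445). All 4 calls held in each of the 12 fits that left out a library, and the first was lost when only the non-silencing and shSetdb1.4 libraries were fitted (log2 fold change -0.24, adjusted p = 0.0526). The interaction for Grb10 was 0.05 (adjusted p = 0.85).

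Gatm (chr2:122594467-122611303, minus strand) encodes the first enzyme of creatine synthesis and is maternally expressed in the placenta. It rose with both treatments. It stood at 2.68, 2.35 and 2.57 RPM with the control hairpin, at 5.41, 3.81 and 4.10 RPM with 5-aza, at 4.05, 3.64 and 4.16 RPM with the Setdb1 hairpin, and at 6.83, 6.92 and 7.17 RPM with both. The control libraries were the lowest of the 12 and those with both treatments the highest, and 5-aza alone overlapped the Setdb1 hairpin alone. The log2 fold change of Gatm was 0.64 and 0.67 for the Setdb1 hairpin without and with 5-aza and 0.80 and 0.82 for 5-aza in control and Setdb1 cells, each with an SE of 0.12 (adjusted p = 0.00443, 0.00247, 0.000933 and 0.000751), held in all 12 fits that left out a library. The summed epithelial markers given above were likewise lowest in the control libraries and highest with both treatments, and their part in this was not tested.

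For the 4 genes called in at least 3 of the pairwise comparisons, the promoter sequence is shown because imprinted promoters are read through their CpG dinucleotides, which are the sites of DNA methylation. Each line gives the 250 bases before a RefSeq transcript start (GRCm38.p6, 5′ to 3′ on the gene's strand), taking the start whose window held the most CpG among those with at most 30 bases of annotated exon, and capitals mark CpG. The windows are chr6:30737800-30738049 for Mest, which holds 14 CpG, chr11:12037421-12037670 for Grb10 with 40, chr2:122611278-122611527 for Gatm with 17 and chr7:142657497-142657746 for Igf2 with 6. The Mest, Grb10 and Igf2 windows lie inside the span of the gene, before an internal start, and the Gatm window takes in 26 bases of an annotated Gatm exon.
Mest: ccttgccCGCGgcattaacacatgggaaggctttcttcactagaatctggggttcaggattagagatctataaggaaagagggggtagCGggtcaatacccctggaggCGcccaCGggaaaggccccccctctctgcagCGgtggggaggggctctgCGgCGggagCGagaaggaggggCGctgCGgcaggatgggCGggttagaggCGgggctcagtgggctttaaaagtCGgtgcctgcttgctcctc
Grb10: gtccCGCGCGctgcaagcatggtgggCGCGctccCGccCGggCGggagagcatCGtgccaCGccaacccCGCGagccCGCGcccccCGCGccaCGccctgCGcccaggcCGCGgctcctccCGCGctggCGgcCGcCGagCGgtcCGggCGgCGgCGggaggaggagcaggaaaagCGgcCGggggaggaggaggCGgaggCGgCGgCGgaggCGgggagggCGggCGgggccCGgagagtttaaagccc
Gatm: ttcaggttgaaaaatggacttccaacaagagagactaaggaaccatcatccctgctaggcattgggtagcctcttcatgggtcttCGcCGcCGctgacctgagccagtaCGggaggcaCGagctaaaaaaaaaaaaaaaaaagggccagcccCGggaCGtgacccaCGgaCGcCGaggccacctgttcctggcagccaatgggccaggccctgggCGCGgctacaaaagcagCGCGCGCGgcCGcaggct
Igf2: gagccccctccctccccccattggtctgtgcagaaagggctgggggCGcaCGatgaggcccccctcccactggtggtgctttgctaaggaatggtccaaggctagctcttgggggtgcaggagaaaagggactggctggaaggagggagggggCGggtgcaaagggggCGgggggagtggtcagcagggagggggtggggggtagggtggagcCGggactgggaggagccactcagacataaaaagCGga

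In windows from 250 bases before to 50 after the start, taking the window with the most CpG for each gene, 38 of the 44 imprinted genes matched the RefSeq table. The 27 that were also tested held a median of 17 CpG, from 3 to 48, against 22 over the 8952 genes tested that had a window. The hexamer TGCCGC, the core that Zfp57 binds when its CpG is methylated, was searched on both strands. It was present in 9 of the 27 (33.3%), which were Mest, Grb10, Plagl1, Nnat, Snrpn, Meg3, Zim1, Commd1 and Mcts2, and in 21.0% of the 8952 genes. Among the imprinted genes called in at least 1 pairwise comparison 4 of 15 held it (26.7%), and among those called in 0 of them 5 of 12 (41.7%). The called genes Zdbf2 and Igf2 held it only in another window with fewer CpG, with 3 and 1 sites, and are not among the 4. The shares therefore depend on the window chosen, and no difference between called and uncalled genes is read from them. The called genes H19, Peg10, Impact and Cdkn1c and the uncalled genes Sgce and Dcn had no window, so these shares leave them out.

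In the Kcnq1ot1 cluster, the next imprinted domain on chromosome 7, Cdkn1c was the one gene of the 44 that was tested. Cdkn1c (chr7:143458350-143461050, minus strand) encodes the cell cycle inhibitor p57, is maternally expressed and restrains fetal growth. It stood at 48.1, 38.3 and 36.2 RPM with the control hairpin, at 53.8, 40.2 and 41.8 RPM with 5-aza, at 46.9, 53.6 and 67.1 RPM with the Setdb1 hairpin, and at 64.6, 68.1 and 70.7 RPM with both. The libraries with both treatments all lay above those with 5-aza alone, while the groups without 5-aza overlapped through replicate 1. Cdkn1c was 0.59 ± 0.14 higher with the Setdb1 hairpin under 5-aza (adjusted p = 0.013), and its log2 fold change without 5-aza was 0.45 ± 0.14 (adjusted p = 0.0605). The first did not pass without control + 5-aza replicate A or B or Setdb1 + 5-aza replicate B (adjusted p up to 0.0559), and the second passed without control replicate 1 or control + 5-aza replicate 1 (adjusted p down to 0.0371). For 5-aza in Setdb1 cells the log2 fold change of Cdkn1c was 0.29, with adjusted p = 0.138, and 0.0043 with the culture as a block.

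The other listed genes of that cluster were below the level tested. Slc22a18, a membrane transporter, had 44, 44 and 25 reads with the control hairpin and 46, 38 and 52 reads with 5-aza, against 16, 19 and 26 with the Setdb1 hairpin and 30, 19 and 30 with both. In RPM those were 0.935, 0.778 and 0.539 and then 0.954, 0.818 and 0.968, against 0.382, 0.4 and 0.442 and then 0.575, 0.38 and 0.597, and the hairpin groups did not overlap with or without 5-aza. With no filter on level, Slc22a18 was 0.84 ± 0.24 lower with the Setdb1 hairpin under 5-aza (adjusted p = 0.0376, where 13.4% of 19319 genes were called) and its log2 fold change without 5-aza was -0.85 ± 0.24 (adjusted p = 0.0522). Phlda2, which limits placental growth, had 3 to 19 reads per library and Ascl2, a trophoblast transcription factor, had 0 to 4.

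The cluster around Peg10 and Sgce on chromosome 6 holds paternally expressed genes at its centre and maternally expressed genes at its sides. Peg10 (chr6:4747306-4760517, plus strand), a retrotransposon-derived gene needed in the placenta, stood at 47.5, 44.1 and 40.9 RPM with the control hairpin, at 56.7, 43.0 and 44.1 RPM with 5-aza, at 53.5, 43.1 and 52.2 RPM with the Setdb1 hairpin, and at 64.2, 56 and 70.7 RPM with both. The group with both treatments was the highest, and it overlapped 5-aza alone through replicate 1 of the latter. Peg10 was 0.41 ± 0.12 higher with the Setdb1 hairpin under 5-aza (adjusted p = 0.0304) and rose by 0.36 ± 0.12 with 5-aza in Setdb1 cells (adjusted p = 0.0404). The first did not pass without control + 5-aza replicate A or B or Setdb1 + 5-aza replicate 1 or B (adjusted p up to 0.125), nor the second without control replicate A, control + 5-aza replicate B, Setdb1 replicate A or B, or Setdb1 + 5-aza replicate 1 or B (adjusted p up to 0.157). Sgce, the epsilon-sarcoglycan gene that shares the Peg10 promoter region, stood at 28.0 to 32.0 RPM over the 12 libraries and was called in none of the 5 tests.

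Among the flanking genes, Asb4 (an ankyrin repeat and SOCS box protein) stood at 2.70, 2.63 and 2.14 RPM with the control hairpin, 3.19, 2.93 and 3.22 RPM with 5-aza, 3.39, 2.84 and 3.23 RPM with the Setdb1 hairpin and 3.45, 3.48 and 3.56 RPM with both. All 9 treated libraries lay above the 3 control libraries. Asb4 was 0.34 ± 0.10 higher with the Setdb1 hairpin (adjusted p = 0.0494) and rose by 0.33 ± 0.10 with 5-aza in control cells (adjusted p = 0.0448), both close to the threshold. The first held only without Setdb1 replicate A and was lost without any other of the 12 libraries (adjusted p up to 0.182), and the second was lost in 8 of 12, which were without control replicate A or B, control + 5-aza replicate 1 or B, Setdb1 replicate B or any 1 Setdb1 + 5-aza replicate (adjusted p up to 0.175). Ppp1r9a, which encodes the neuronal scaffold neurabin, stood at 1.10, 1.22 and 1.21 RPM with the Setdb1 hairpin and 1.73, 2.02 and 1.79 RPM with both, and so did not overlap. Its control libraries stood at 1.72, 1.38 and 1.04 RPM, and at 2.07, 1.44 and 2.03 RPM with 5-aza. Ppp1r9a rose by 0.65 ± 0.19 with 5-aza in Setdb1 cells (adjusted p = 0.0227), which did not pass without Setdb1 replicate 1 or A or Setdb1 + 5-aza replicate A or B (adjusted p up to 0.0654), and its log2 fold change in control cells was 0.43 (adjusted p = 0.121). Tfpi2, a protease inhibitor, stood at 2.0 to 4.21 RPM and was called in none of the 5 tests.

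A pair of imprinted genes lies each inside the intron of a host gene on chromosome 2, and the hosts rose with 5-aza. Blcap (chr2:157556362-157571274, minus strand) hosts Nnat, and H13 (chr2:152669461-152708670, plus strand), which encodes signal peptide peptidase, hosts Mcts2. Blcap stood at 38.9, 38.1 and 36.5 RPM with the control hairpin and 36.8, 37.8 and 37.4 RPM with the Setdb1 hairpin, against 46.2, 43.6 and 43.7 RPM and 46.9, 48.0 and 49.5 RPM with 5-aza. The 6 libraries with 5-aza all lay above the 6 without. Blcap rose by 0.24 ± 0.04 in control cells (adjusted p = 0.00228) and by 0.37 ± 0.04 in Setdb1 cells (adjusted p = 0.000187). H13 stood at 185.7, 182.2 and 176.6 RPM with the control hairpin and 190.7, 192.0 and 201.5 RPM with the Setdb1 hairpin, against 209.8, 209.0 and 204.8 RPM and 213.5, 222.0 and 224.7 RPM with 5-aza. These again did not overlap between 5-aza and no 5-aza. H13 rose by 0.20 ± 0.04 and 0.18 ± 0.04 (adjusted p = 0.00352 and 0.00469). All 4 of these calls held in the 12 fits that left out a library.

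Of the genes within the hosts, Nnat moved the other way from Blcap with 5-aza, and Mcts2 was not called. Nnat (chr2:157560078-157562522, plus strand), a paternally expressed gene for the membrane proteolipid neuronatin, stood at 14.7, 12.8 and 12.1 RPM with the control hairpin and 10.9, 7.15 and 8.92 RPM with 5-aza, and at 9.55, 12.5 and 12.7 RPM with both treatments. With the Setdb1 hairpin alone it was at 15.2 ± 2.35 RPM (SD, n = 3), with replicate B the highest at 17.9 RPM. It was lower with 5-aza than without it in both hairpin groups, with no overlap in either. Nnat fell by 0.57 ± 0.16 in control cells (adjusted p = 0.0284), a call lost without any 1 of the 3 control replicates or control + 5-aza replicate A or B (adjusted p up to 0.0825). In Setdb1 cells its log2 fold change was -0.39 (adjusted p = 0.0879, and 0.00592 with the culture as a block). Mcts2 stood at 4.11 to 5.85 RPM and was called in none of the 5 tests. Its log2 fold change with 5-aza was -0.06 ± 0.11 in control cells and 0.13 ± 0.11 in Setdb1 cells. These values do not settle whether Mcts2 followed H13. With the strand setting of the counting not given, reads of Nnat, on the opposite strand of Blcap, may be counted in it, and Mcts2 lies on the strand of H13.

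**Figure D5:**
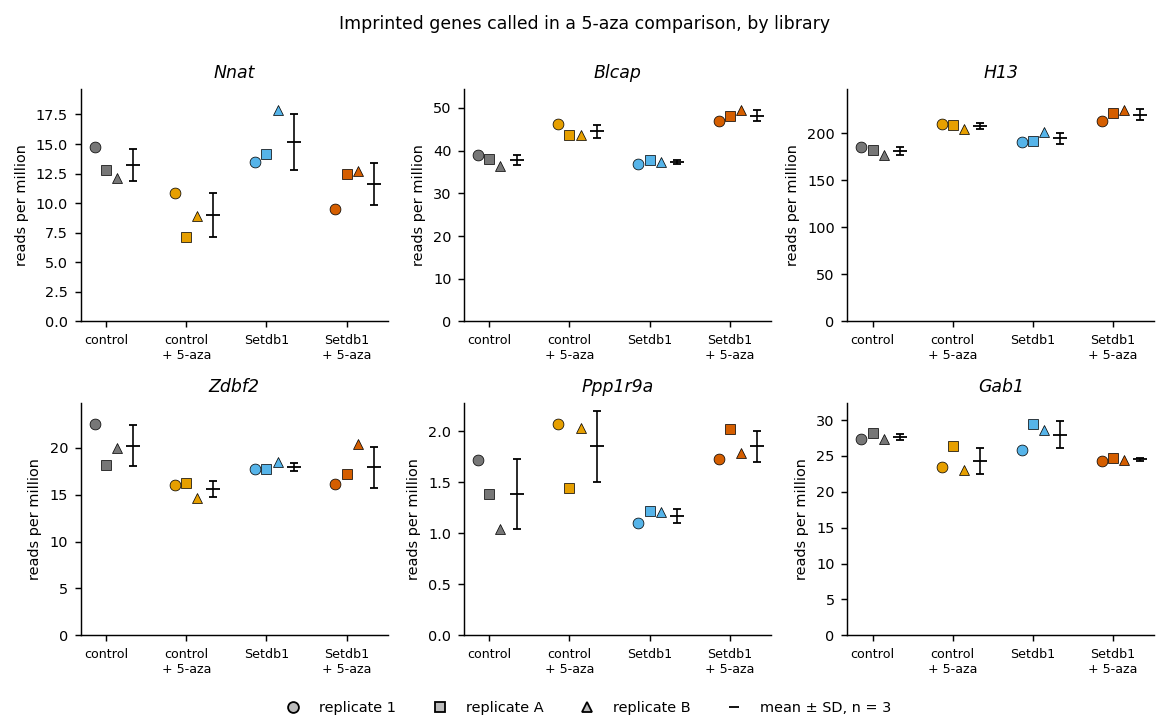
Level in RPM (vertical axes, from 0) of Nnat, Blcap, H13, Zdbf2, Ppp1r9a and Gab1 in the 4 groups (horizontal axes), with a point per library shaped by replicate and the mean ± SD of the 3 libraries beside them. Blcap and H13 are higher in all 6 libraries with 5-aza than in the 6 without, and Nnat is at 7.15 to 10.9 RPM with the control hairpin and 5-aza.

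In the Snrpn-Ndn domain on chromosome 7, the region of the Prader-Willi and Angelman syndromes in people, 3 paternally expressed genes of the 44 were tested. Ndn, the MAGE family gene of necdin, stood at 66.3, 58.8 and 71.1 RPM with the Setdb1 hairpin and 75.3, 77.1 and 76.8 RPM with both treatments, which did not overlap. It rose by 0.23 ± 0.07 (adjusted p = 0.0348), which did not pass without Setdb1 replicate 1 or A or any 1 Setdb1 + 5-aza replicate (adjusted p up to 0.14), and its control cells stood at 66.0 to 74.4 RPM without and 68.4 to 80.1 RPM with 5-aza. Peg12, a Frat family gene of the Wnt pathway, stood at 10.2, 10.9 and 10.2 RPM with the control hairpin, 9.58, 7.62 and 9.53 RPM with 5-aza, 11.8, 10.6 and 11.7 RPM with the Setdb1 hairpin and 11.5, 10.9 and 10.5 RPM with both. The 3 libraries of control + 5-aza were the lowest of the 12. Peg12 was 0.31 ± 0.09 higher with the Setdb1 hairpin under 5-aza (adjusted p = 0.0282), which did not pass without control + 5-aza replicate A or Setdb1 + 5-aza replicate 1 or B (adjusted p up to 0.114). Snrpn, a splicing protein gene, stood at 21.4 to 28.3 RPM and was called in none of the 5 tests. Magel2 and Mkrn3 had 7 to 21 and 8 to 24 reads per library.

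Single imprinted genes outside those clusters moved as follows. Plagl1, a zinc finger transcription factor that restrains growth, stood at 55.2, 47.6 and 46.0 RPM with control + 5-aza and 64.9, 57.2 and 75.5 RPM with Setdb1 + 5-aza, with no overlap, and was 0.40 ± 0.11 higher (adjusted p = 0.0252). The call for Plagl1 was lost without control + 5-aza replicate A or B or Setdb1 + 5-aza replicate 1 or B (adjusted p up to 0.108). Without 5-aza Plagl1 stood at 48.7 to 56.5 RPM with the control hairpin and 57.8 to 72 RPM with the Setdb1 hairpin (adjusted p = 0.128).

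Zdbf2, a paternally expressed zinc finger gene, stood at 22.5, 18.1 and 20.0 RPM with the control hairpin and 16.0, 16.2 and 14.7 RPM with 5-aza, and at 17.8, 17.7 and 18.5 RPM with the Setdb1 hairpin and 16.1, 17.2 and 20.4 RPM with both. The control groups did not overlap and the Setdb1 groups did. Zdbf2 fell by 0.37 ± 0.09 with 5-aza in control cells (adjusted p = 0.0158), a call lost without control replicate 1 or B or control + 5-aza replicate B (adjusted p up to 0.0649). In Setdb1 cells its log2 fold change was -0.01, and the difference between both effects was 0.36 ± 0.13 (unadjusted p = 0.0168, adjusted p = 0.794).

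Gab1, an adaptor of receptor tyrosine kinases that is imprinted in placenta, stood at 27.4, 28.2 and 27.4 RPM with the control hairpin and 23.5, 26.4 and 23.0 RPM with 5-aza, and at 25.8, 29.4 and 28.6 RPM with the Setdb1 hairpin and 24.3, 24.8 and 24.5 RPM with both. Each 5-aza group lay below its counterpart. Gab1 fell by 0.19 ± 0.06 in each (adjusted p = 0.0447 and 0.0355). The call in control cells was lost without any 1 control replicate, control + 5-aza replicate 1 or B, Setdb1 replicate B or Setdb1 + 5-aza replicate 1 or B (adjusted p up to 0.158), and that in Setdb1 cells without Setdb1 replicate A or B or any 1 Setdb1 + 5-aza replicate (adjusted p up to 0.137).

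Impact and Gnas were called for 5-aza in Setdb1 cells. Impact, a regulator of the stress kinase Gcn2, stood at 107.5, 104.9 and 124.3 RPM with the Setdb1 hairpin and 143.0, 130.3 and 155.3 RPM with both, which did not overlap. It rose by 0.35 ± 0.10 (adjusted p = 0.0241), not passing without Setdb1 replicate 1 or A or Setdb1 + 5-aza replicate 1 or B (adjusted p up to 0.0985). In control cells Impact overlapped, at 116.1 to 144.1 RPM without and 123.0 to 150.1 RPM with 5-aza. Gnas, which encodes the stimulatory G protein alpha subunit and of whose transcripts only some are imprinted, stood at 1202.1, 1171.3 and 1217.2 RPM and then 1317.7, 1307.9 and 1322.4 RPM, again without overlap. Gnas rose by 0.14 ± 0.04 (adjusted p = 0.0194), not passing without Setdb1 replicate A or Setdb1 + 5-aza replicate 1 or B (adjusted p up to 0.079). Its antisense neighbour Gm20721 was listed at 1126.3 to 1331.0 RPM against 1171.3 to 1376.7 RPM for Gnas, so the table does not separate the strands at this locus.

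The remaining imprinted genes were called in none of the 5 tests. In the Igf2r-Airn cluster, the receptor Igf2r, which clears insulin-like growth factor 2, ranged from 374.9 to 627.9 RPM and its antisense silencing RNA Airn from 1.55 to 3.34 RPM, and both were highest in control + 5-aza replicate A. Of the 33 genes Airn had the largest interaction in size, -0.67 (adjusted p = 0.794). Airn overlaps Igf2r on the other strand, and the reads of the overlap may not have been assigned by strand. In the Peg3 cluster, the zinc finger genes Peg3 and Zim1 stood at 81.9 to 143.5 RPM and 2.74 to 4.97 RPM. Zim1 was lower in every Setdb1 library than in every control library both without and with 5-aza, with a log2 fold change of -0.36 (adjusted p = 0.092) and -0.28 (adjusted p = 0.146).

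In the Dlk1-Meg3 cluster, Dlk1, a transmembrane protein that restrains adipocyte differentiation, ranged from 50.5 to 114.2 RPM, and the maternally expressed non-coding RNA Meg3 from 345.5 to 583.4 RPM. For 5-aza in Setdb1 cells the log2 fold change of Dlk1 was 0.44 (adjusted p = 0.144, and 0.00522 with the culture as a block). Meg3 with Setdb1 + 5-aza lay below control + 5-aza in every library, at 345.5, 541.7 and 500.6 RPM against 547.4, 574.4 and 583.4 RPM, with a log2 fold change of -0.32 (adjusted p = 0.103). It passed only without Setdb1 + 5-aza replicate A (adjusted p = 0.0232). The matrix proteoglycan gene Dcn, with a log2 fold change of -0.74 in the same comparison (adjusted p = 0.114), also passed without that library (adjusted p = 0.00855) and ranged from 4.83 to 15.4 RPM. The splicing factor gene Zrsr1 stood at 13.9 to 16.5 RPM, its host Commd1 at 31.9 to 35.9 RPM and the phosphoinositide phosphatase gene Inpp5f at 28.7 to 33.8 RPM.

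At the lowest levels, the growth signalling gene Rasgrf1 had 0 to 3 reads per library, the transporter gene Slc22a3 had 0 to 1 and the ubiquitin peptidase gene Usp29 had 0 to 4, all near the limit of 3 reads, so that differences in them were not detectable at this depth. Among the 8 genes under the level tested, Slc22a18 alone was called when the filter on level was dropped.

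By the parental copy that each gene is described as expressed from in some tissue, the calls stood as follows. For some genes, such as Gatm and Gab1, that description is of placenta. The copy used in these fibroblasts was not measured. Of 18 paternally expressed genes tested, 0 were called between hairpins without 5-aza (4 at an unadjusted p under 0.05), and of 14 maternally expressed genes 3 were. Under 5-aza the hairpin comparison called 3 paternal genes higher and 2 lower, and 2 maternal genes higher and 2 lower. For 5-aza in control cells, 5 of the paternal genes were lower and 0 higher, while 4 of the maternal genes were higher and 1 lower. Over all genes, 1769 of the 13134 were higher in that comparison and 5.34% were lower. There the paternal calls of Mest, Nnat, Zdbf2 and Gab1 and the maternal call of Asb4 were lost when certain single libraries were left out. The calls of Igf2, Grb10, Gatm, H13 and Blcap held in all 12 such fits. For 5-aza in Setdb1 cells 3 paternal genes were higher and 3 lower, and 4 maternal genes were higher and 2 lower. In the same order of comparisons, 0.0%, 27.8%, 27.8% and 33.3% of the paternal genes and 21.4%, 28.6%, 35.7% and 42.9% of the maternal genes were called, against 12.4%, 19.9%, 18.8% and 28.9% of all genes. The difference between both parental sets was not tested.

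The RNA of genes for proteins linked to imprints was also examined, in a list of 25 regulators. Of these, 22 were expressed enough to test, on 23 rows. Dppa3, Dnmt3l and Ctcfl were below that level. With the Setdb1 hairpin 8 rows were higher and 0 lower both without and with 5-aza, from the same 7 genes each time. That was 34.8% of the rows higher both times, against 9.01% of all genes without and 14.5% with 5-aza. Atf7ip, the partner that stabilises Setdb1 protein, has 2 rows, at 91.1 ± 3.41 against 184.9 ± 5.67 RPM and 9.92 ± 0.692 against 24.2 ± 1.08 RPM (SD, n = 3), or 1.02 and 1.29 higher on the log2 scale (limma adjusted p = 5.2e-07 and 6.22e-07). Dnmt1, the maintenance DNA methyltransferase, went from 83.7 ± 1.47 to 107.4 ± 10.6 RPM (adjusted p = 0.0049) and its guide Uhrf1 from 35.5 ± 2.19 to 47.9 ± 6.26 RPM (adjusted p = 0.0194). Trim28, Ctcf (the insulator protein of the Igf2-H19 control region), Smchd1 and Hnrnpu were the other 4. With 5-aza in control cells Dnmt1, Uhrf1 and Smchd1 fell and 1 row of Atf7ip rose. In Setdb1 cells Hnrnpu, Dnmt3b, Tet3, Ctcf, Smchd1 and Atrx fell and Ehmt2 rose. The rows called for 5-aza were 17.4% in control cells and 30.4% in Setdb1 cells, against 18.8% and 28.9% of all genes. Zfp57 stood at 28.8 ± 2.08 RPM with the control hairpin and 30.6 ± 2.19 RPM with the Setdb1 hairpin (adjusted p = 0.532).

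A second list held 54 further genes described as imprinted in some tissue, of which 34 were tested. With the Setdb1 hairpin 1 was higher, Herc3, and 5 were lower, Adam23, Cd81, Tssc4, Cobl and Qpct. Under 5-aza Nap1l4 was higher and Adam23, Phf17 and Qpct were lower. Qpct, which encodes glutaminyl-peptide cyclotransferase, stood at a mean of 3.79 RPM with the control hairpin and 1.99 RPM with the Setdb1 hairpin, 0.92 lower on the log2 scale (adjusted p = 0.000228), and rose with 5-aza by 0.67 in control cells (adjusted p = 0.00159) and 0.85 in Setdb1 cells (adjusted p = 0.000447). With 5-aza 4 of the 34 were higher and 3 lower in control cells, and 9 were higher and 3 lower in Setdb1 cells. The share called was 17.6% and 11.8% between hairpins without and with 5-aza, against 12.4% and 19.9% of all genes, and 20.6% and 35.3% for 5-aza in control and Setdb1 cells, against 18.8% and 28.9%. Ampd3, an AMP deaminase, had the largest rise of the list, from 5.92 to 13.1 RPM in control cells (1.15 on the log2 scale, adjusted p = 0.00541) and from 6.94 to 20.8 RPM in Setdb1 cells (1.58, adjusted p = 0.000787). Slc38a4, an amino acid transporter, fell by 0.47 and 0.33 (adjusted p = 0.00441 and 0.0163). The interaction called 0 of the 34, with 2 at an unadjusted p under 0.05, and 0 of the 23 regulators, with 1.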

How the data were processed

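Poly(A) RNA of 13 MEF libraries was sequenced by the authors on an Illumina HiSeq as single-end reads. The deposited table gives log2 RPM (reads of a gene per 1000000 reads), on build mm10 per the labels, which also name CASAVA 1.4. The aligner, counter and annotation of this table are not given in the sources used here. The deposited log2 values correspond to whole reads (100.0% within a relative tolerance of 0.001, a gene without reads set at 0.9 read), and levels in RPM were computed from them. Totals were 41.9 to 58.8 M reads per hairpin library, and counting precision follows from this alone. The 13134 genes that reached 1 RPM in 3 or more hairpin libraries entered a limma 3.58.1 fit (R 4.3.3) of the deposited log2 values, 4 groups in 1 fit, trended variance, and p-values were adjusted by Benjamini and Hochberg over all genes for each of 5 contrasts. The test was checked on simulated data. Members were listed by gene name, and members, lists and tests were chosen with earlier results of these data known. Every member is accounted for, and values in each library are given for members called in at least 1 comparison.

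Residuals of the same culture with and without 5-aza correlated at 0.5863, 0.1487 and 0.0999 in control cells and at 0.4719, 0.6342 and 0.4127 in Setdb1 cells. On these values culture names were taken to pair the Setdb1 libraries but not the control libraries, though control replicate 1 reached 0.5863. The culture block was 1 fit over both hairpin groups, so its p-values in Setdb1 cells also rest on the control pairs. The same letter gave -0.4703 to 0.6858 between hairpin groups, the highest for replicate A under 5-aza, and was not taken to pair them. Alternatives were pseudocounts, filters, scaling, subsets of libraries, a block and leaving out each library. Voom was added after seeing the data.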

Additional observations from a re-analysis of the deposited data

Results flagged for a closer look

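The library given 5-aza but no named hairpin (17.4 M reads in listed genes) entered no comparison, and 3 imprinted genes stood there more than 1.5 times above the highest of the 12 hairpin libraries. Igf2 was at 1697.7 RPM, against 400.1 to 973.6 RPM in the hairpin libraries. H19 was at 1054.1 RPM against 267.8 to 674.5 RPM, and Mest at 50.9 RPM against 10.9 to 33.3 RPM. Of the 33 imprinted genes tested, 12 lay above all hairpin libraries, 4 below all of them and 17 within their range. This library is named PGK and its label gives no hairpin and no group. The study describes a PGK sample in which PGK variants were found, so strain and hairpin cannot be told apart here, and these are values of 1 library with no test.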

How the results depend on the processing

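No fold change of the 33 genes reversed among the calls in any alternative. Of 35 calls, 15 held in all 12 fits that left out a library and 14 in every alternative run. Leaving out each library gave 2 to 3 calls for the Setdb1 hairpin, 2 to 12 for the Setdb1 hairpin under 5-aza, 5 to 11 for 5-aza in control cells, 6 to 13 for 5-aza in Setdb1 cells and 0 for the interaction. Fitting only the 2 groups compared gave 3 calls in place of 9 between hairpins under 5-aza, where fewer libraries estimate the spread. With the non-silencing and shSetdb1.4 libraries only, 5, 6 and 7 were called in place of 9, 10 and 13 between hairpins under 5-aza and for 5-aza in control and Setdb1 cells. Pseudocounts of 0.1 and 1, no filter, a filter of 5 RPM, median centring, quantile normalization and voom on recovered reads, the last added after seeing the data, kept each total within 1.5 times. The directions moved more. Higher and lower calls were 2 and 1, 5 and 4, 4 and 6, and 8 and 5 for the hairpin without and with 5-aza and for 5-aza in control and Setdb1 cells. They became 1 and 2, 4 and 6, 3 and 7, and 5 and 5 with median centring, and 1 and 1, 4 and 5, 3 and 7, and 4 and 6 with quantile normalization. Centring moved the median of all genes by under 0.1.

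With the replicate letter as a block, 6 were called in place of 3 between hairpins without 5-aza (Cdkn1c, Zim1 and Mest added). Dcn was added between hairpins under 5-aza. The letters were not taken to pair these groups. With the culture as a block, the interaction called 1 in place of 0 (H19, -0.57, limma adjusted p = 0.0264). That block also pairs the control libraries, whose cultures were not taken as paired. For 5-aza in Setdb1 cells, whose cultures were taken as paired, the culture block called 16 in place of 13 (Cdkn1c, Dlk1 and Nnat added). It also called Zim1 for 5-aza in control cells. Neither block lost a call, and no share over all genes was taken with either. The planned count models on recovered reads were not run, since the deposited unit is log2.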
